A study of Mus musculus with 4 samples.

Results

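The cytosolic ribosomal proteins are the building blocks of the ribosome that translates the mRNAs of the cell nucleus. Their genes were taken as all genes with a symbol of the form Rpl or Rps followed by a number, or Rplp0 to Rplp2 or Rpsa, on probe sets that list 1 symbol, without the S6 kinases (Rps6k genes). This gave 46 of the 18194 genes measured, on 100 probe sets. Where several probe sets read a gene, the one with the highest 4-array mean was used, and the gene counted as expressed where that mean reached 4.85 on the log2 scale, the median of all values. Of the 46 genes 43 were expressed, 22 of the 24 of the large subunit and 21 of the 22 of the small subunit, among 11664 expressed genes in all.

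Expression was measured in livers of mice aged 10 months, in a design that crossed diethylnitrosamine (DEN), a carcinogen that initiates liver tumours, with a diet that held the bile acid cholic acid (CA) at 0.2%. Mice without DEN ate control diet or CA diet, and mice given DEN were afterwards fed one of the same diets, which made 4 groups. The sources used here do not give the strain, sex, DEN dose, time on the diet or share of tumour tissue. Each group was 1 array, and its RNA came from a pool of 3 to 5 livers. There was therefore no replicate, no test could be made, and every difference below is that of 2 pools, in which the spread between mice cannot be told apart from the treatment.

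A ribosome has a small subunit, which reads the mRNA, and a large subunit, which joins amino acids. Each subunit takes up 1 copy of most of its proteins, so cells make them in matched amounts. Their mRNAs begin with a run of pyrimidines, the 5' terminal oligopyrimidine (TOP) tract, through which the TOR pathway and the protein LARP1 govern their translation. Because of this control an mRNA level is not a measure of ribosome output. Ribosomal protein mRNAs are among the most abundant in a hepatocyte, and growing or regenerating liver is known to make more ribosomes.

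The tissue and the treatment were checked first. All 10 hepatocyte markers measured were expressed, with a mean log2 level between 13.16 and 13.27 on the 4 arrays, and Alb, which encodes albumin, lay between 14.74 and 14.82. Afp, the fetal albumin-like protein found in liver tumours, had log2 levels of 4.77 on control diet and 4.10 on CA diet, against 12.65 and 12.17 on the DEN arrays with control and CA diet. Both arrays labelled DEN were therefore apart from both arrays without DEN. The array medians over all probe sets lay between 4.84 and 4.86. As a measure of technical spread, the log2 differences of 18 probe sets for hybridisation controls, transcripts added to every sample, were computed for each pair of arrays. Their SD was between 0.07 and 0.10 over the 5 pairs.

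DEN with control diet was compared with control diet alone, and DEN with CA diet with CA diet alone. Ribosomal protein genes were higher after DEN on both diets, by a small amount that most of them shared. On control diet the median log2 difference of the 43 genes was 0.22 (SD over genes 0.17), and 41 of 43 lay above 0, against a median of 0.04 and 54.5% above 0 for all expressed genes. On CA diet the median was again 0.22 (0.225, SD over genes 0.16) with 39 of 43 above 0, against 0.00 and 50.5%. The hybridisation controls had median differences of 0.04 on control diet and 0.15 on CA diet.

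Few single genes differed by much. At least 1.5-fold differences were found for 2 of 43 genes on control diet, against 15.4% of all expressed genes in either direction, and for 1 of 43 on CA diet, against 16.3%. No ribosomal protein gene reached 2-fold in either comparison, while 6.02% and 6.5% of all genes did. The distance from the 25th to the 75th percentile ran from 0.13 to 0.35 on control diet for ribosomal protein genes and from -0.17 to 0.28 for all expressed genes. Beyond the largest difference of any hybridisation control (0.20) on control diet lay 24 of 43 genes upwards and 0 downwards, against 31.2% and 22.4% of all genes. On CA diet the largest control difference was 0.37, and 8 of 43 genes exceeded it upwards, a share close to the 17.9% of all genes.

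**Figure D1:**
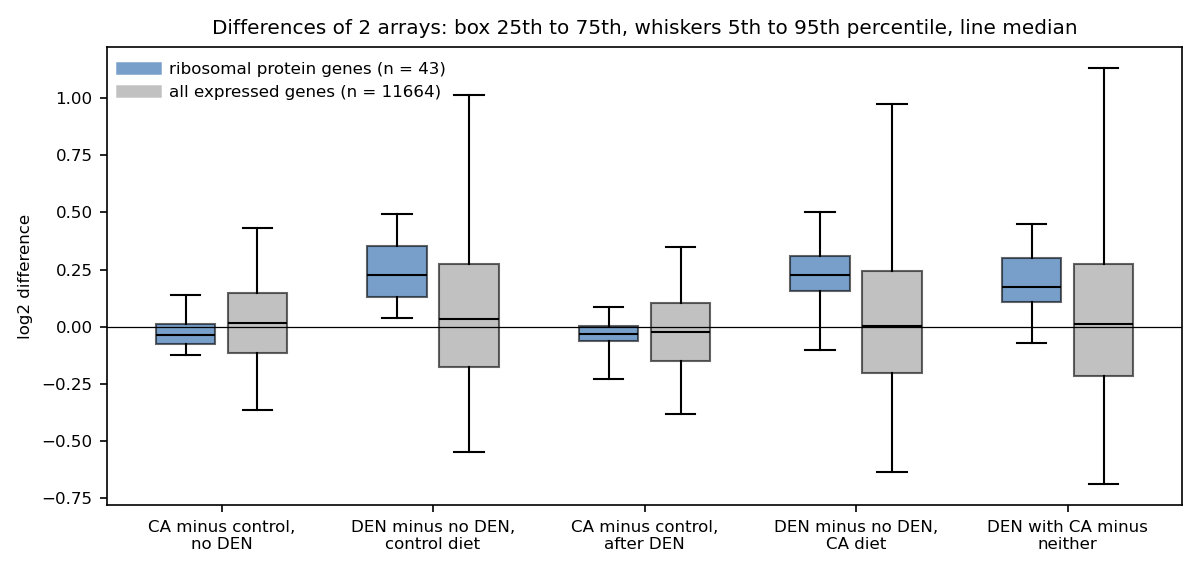
Log2 differences of pairs of arrays for the 43 expressed ribosomal protein genes (blue) and all 11664 expressed genes (grey), with the box from the 25th to the 75th percentile, whiskers from the 5th to the 95th and a line at the median. The blue boxes of the 3 comparisons with a DEN array lie above 0 with medians of 0.22, 0.22 and 0.17, and both diet comparisons have blue medians of -0.03.

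The DEN arrays were set apart from the others in most of the genes. For 38 of 43 genes both DEN arrays were above both arrays without DEN, which held for 34.3% of all expressed genes. The reverse held for Rpl27a and Rpl39, 2 of 43, against 28.7%, and Rps2, Rps27l and Rps4l had arrays of both kinds overlapping. The DEN array with control diet was the highest of the 4 for 30 genes and the DEN array with CA diet for 11, while all expressed genes had their highest value there in 26.8% and 24.9% of cases. The array with CA diet alone was the lowest for 28 genes, against 22.4% of all.

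The deposited values depend on how arrays were set against each other, and this bears on a shift of 0.22. When each array was centred on the median of its expressed genes, the median of all genes on control diet moved by -0.16, to -0.13. The ribosomal protein median was then 0.06 with 28 of 43 above 0, where 35.1% of all genes were above 0. On CA diet the same centring left 0.15 with 37 of 43 above 0, against 40.9% of all. With centring 23 of 43 genes still had both DEN arrays above both others, against 23.3% of all genes. After quantile normalization it was 38 of 43, against 29.3% of all genes, and after loess centring 40 of 43, against 32.9%. Relative to the median of all genes, the ribosomal protein median stood between 0.17 and 0.28 higher on control diet over all settings tried, and between 0.18 and 0.31 higher on CA diet.

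**Figure D2:**
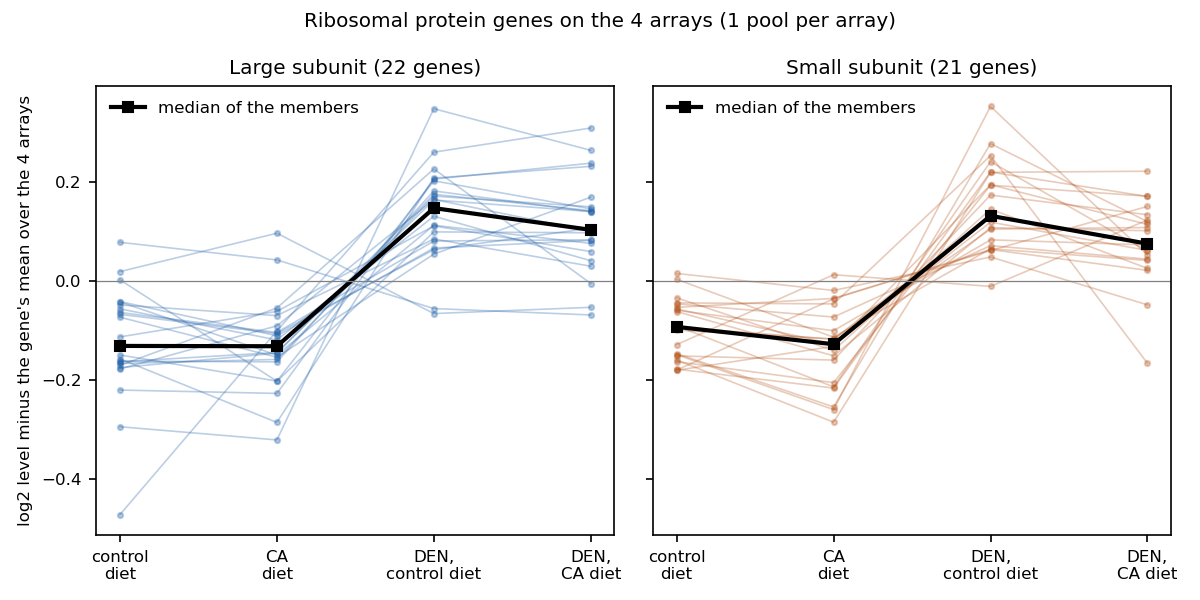
Log2 level of each expressed ribosomal protein gene minus its own mean over the 4 arrays, for 22 large subunit genes (left) and 21 small subunit genes (right), with 1 array a group and the median in black. Most lines step up between the arrays without DEN and the DEN arrays, and over the 43 genes the median difference between DEN and no DEN was 0.22 on control diet.

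The comparisons of DEN on the 2 diets use 4 different arrays, so the values of 1 do not enter the other. Over the 43 genes the 2 sets of differences had Pearson's r of 0.72 and Spearman's rho of 0.70, given as a description over genes that share the same 4 arrays. Both differences were above 0 for 39 genes and below 0 for 2. For all expressed genes r was 0.86, with 40.7% above 0 in both, a higher correlation with fewer genes of that sign.

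**Figure D3:**
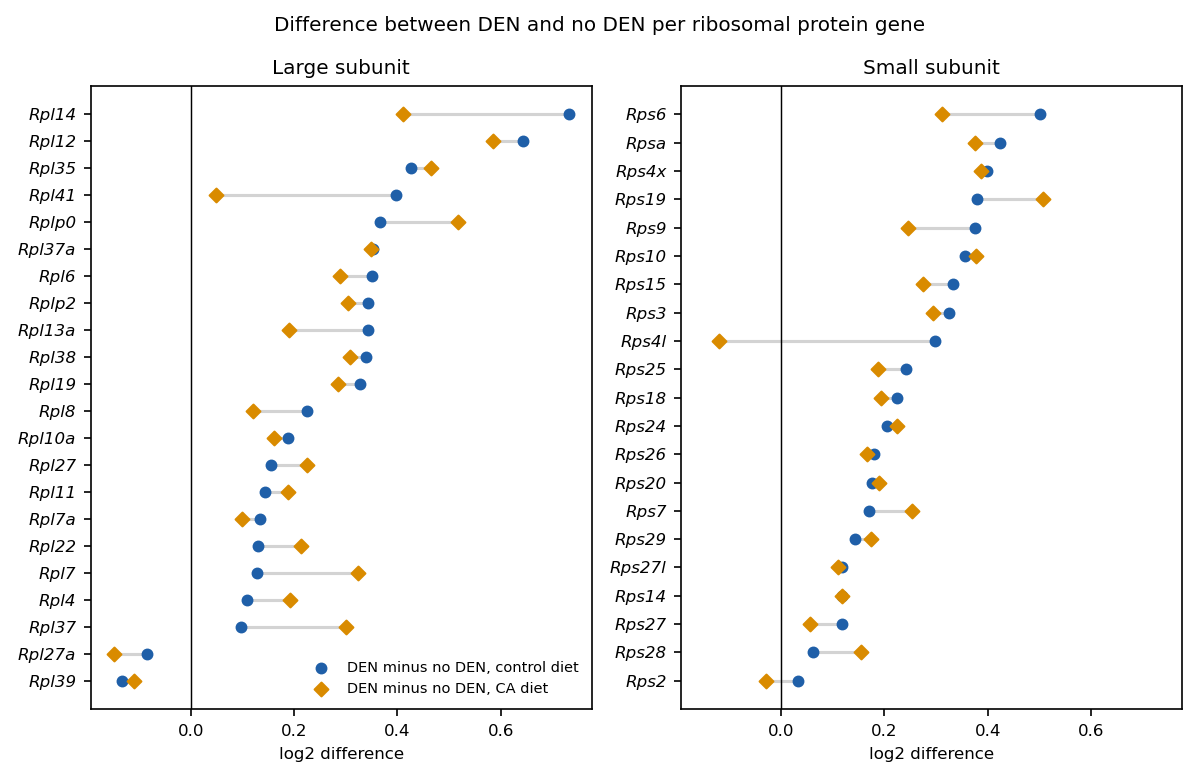
Log2 difference between DEN and no DEN for each expressed ribosomal protein gene, on control diet (blue circles) and on CA diet (orange diamonds), sorted by the control diet value within each subunit. Of 43 genes 39 have both symbols to the right of 0, Rpl39 and Rpl27a have both to the left, and the widest gaps between the symbols are those of Rps4l and Rpl41.

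The start of the gene carries the TOP tract, so the sequence around it was read from RefSeq for GRCm38.p6. Windows from 250 bases before to 50 after the start were found for 37 of the 43 expressed members. A C followed by at least 7 bases that are all C or T, within 20 bases of the start on the coding strand, was present in 19 of 37 members (51.4%). Such a run was found in 16.2% of 9430 expressed genes and in 14.5% of all 27025 genes with a window. The windows below reach from 60 bases before to 20 after the start, and capitals mark the run. They show 5 members with a run, 4 of them higher after DEN and Rpl27a not, and 3 without a run in this window, Rplp0 and Rps19 with high differences and Rps2 with the smallest range. They lie at chr2:39005112-39005191 (minus strand) for Rpl35, chr4:86857348-86857427 (minus) for Rps6, chr17:27635225-27635304 (minus) for Rps10, chr9:120571457-120571536 (plus) for Rpl14 and chr7:109519135-109519214 (plus) for Rpl27a. Those without a run lie at chr5:115559407-115559486 (plus) for Rplp0, chr7:24884532-24884611 (plus) for the first start of Rps19 and chr17:24720003-24720082 (plus) for Rps2.
Rpl35: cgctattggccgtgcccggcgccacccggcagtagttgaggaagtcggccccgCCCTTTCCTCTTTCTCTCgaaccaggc
Rps6: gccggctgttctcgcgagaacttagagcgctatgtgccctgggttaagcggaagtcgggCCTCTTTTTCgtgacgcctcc
Rps10: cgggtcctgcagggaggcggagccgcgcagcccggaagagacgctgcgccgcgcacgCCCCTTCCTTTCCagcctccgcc
Rpl14: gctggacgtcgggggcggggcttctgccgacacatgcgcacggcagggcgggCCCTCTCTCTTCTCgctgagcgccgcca
Rpl27a: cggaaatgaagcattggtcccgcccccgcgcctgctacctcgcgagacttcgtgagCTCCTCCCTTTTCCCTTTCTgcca
Rplp0: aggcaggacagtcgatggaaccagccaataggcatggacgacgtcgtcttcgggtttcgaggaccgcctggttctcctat
Rps19: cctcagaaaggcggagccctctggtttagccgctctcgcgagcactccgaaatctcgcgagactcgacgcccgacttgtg
Rps2: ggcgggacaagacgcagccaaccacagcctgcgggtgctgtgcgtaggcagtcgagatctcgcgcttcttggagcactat

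Members with a run had no higher median after DEN than members without. The 19 genes with a run had median differences of 0.24 on control diet and 0.19 on CA diet, and the 18 without had 0.33 and 0.28. These are descriptions of 37 genes. Pyrimidine stretches shorter than the run sought were not counted, so genes without a run can still have a shorter stretch. A run would also be missed where the annotated start was off by more than the bases searched on each side. Of 3 other motifs, searched on both strands of the 300 bases, CCGGAAG was present in 19 of 37 members (51.4%), against 19.2% of expressed genes and 9.93% of all. It forms the core of sites bound by ETS factors. The letters AAGATGG, as in sites of YY1, were in 6 of 37 (16.2%), against 8.40% of expressed genes, and CTCTTTC, which can lie inside a run, in 7 of 37 (18.9%), against 9.0%.

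The difference was present in both subunits. The large subunit genes had a median difference of 0.28 on control diet and 0.26 on CA diet, with 20 of 22 above 0 each time. For the small subunit it was 0.22 and 0.19, with 21 and 19 of 21 above 0. The medians of the subunits differed by 0.05 and 0.06. The order is not firm, since on probe sets without a suffix in their name the large minus small difference on control diet was -0.05.

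Among proteins of the large subunit, those of the P stalk, the arm that recruits translation factors, were measured through 3 genes. Rplp0, which anchors the stalk, had log2 levels of 12.19 on control diet and 12.06 on CA diet, and of 12.56 and 12.58 on the DEN arrays with control and CA diet. Both DEN arrays were higher, by 0.37 on control diet and 0.52 on CA diet, the latter a 1.43-fold difference. Rplp2, one of the acidic proteins on the stalk, had 12.22 on both arrays without DEN and 12.57 and 12.53 on the DEN arrays. Rpl12, at the base of the stalk, had 5.13 and 5.11 without DEN and 5.78 and 5.69 after DEN, a 1.56-fold difference on control diet and a 1.5-fold one, just at the threshold, on CA diet. The 3 stalk genes had median differences of 0.37 and 0.52 on the 2 diets, and on each diet all 3 were above 0.

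Rpl14, a large subunit protein, had the largest difference of any member on control diet. Its log2 levels were 5.03 on control diet, 5.40 on CA diet, and 5.77 and 5.81 on the DEN arrays with these diets. The control diet array was low against the other 3, with a 1.66-fold difference for DEN on control diet and 1.33-fold on CA diet. Rpl12 and Rpl14 were the only members past 1.5-fold in a comparison of DEN with no DEN, and both were read on probe sets near the expression limit. The platform annotation lists each of them also on brighter probe sets that name several genes, from which no gene is named here. When only the 34 members with a mean of at least 9 were kept, all were above 0 on control diet and 33 on CA diet. None of them reached 1.5-fold. Among all genes with such a mean, 48.9% were above 0 on control diet and 16.3% reached 1.5-fold in either direction there. The 34 members had means between 11.09 and 13.60, so they and all genes from 9 upwards are not matched for level.

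Around the tunnel through which the new protein leaves the ribosome, 4 of the 8 genes listed were measured. Rpl35, whose start holds a pyrimidine run, had log2 levels of 11.87 on both arrays without DEN and 12.30 and 12.33 after DEN, differences of 0.43 and 0.47. Rpl19 had 12.07 and 12.09 without DEN and 12.39 and 12.37 after DEN. Rpl22, an RNA-binding protein of this region, had 12.27 and 12.23 without DEN and 12.40 and 12.44 after DEN. The 3 probe sets of Rpl22 disagreed, with differences from -0.09 to 0.13 on control diet and from -0.20 to 0.21 on CA diet. Rpl39, a very small protein of the tunnel wall, went the other way with 6.55 and 6.51 without DEN and 6.41 and 6.40 after DEN. Its differences of -0.13 and -0.11 were the only ones below 0 in this group on the probe sets used, and the group's medians were 0.23 and 0.25.

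The only other gene with both DEN arrays below both others was Rpl27a, whose start also holds a run, with log2 levels of 7.53 and 7.61 without DEN and 7.45 and 7.46 after DEN. Rpl39 and Rpl27a, like Rpl12 and Rpl14, are among 9 members that the annotation also lists on probe sets with several symbols whose mean was more than 3 log2 units above that of the probe set used. The others are Rpl37, Rps16, Rps25, Rps27 and Rps6.

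Other large subunit genes stood between these. Rpl41, which encodes a tiny basic peptide, had 12.18 and 12.30 without DEN and 12.58 and 12.35 after DEN, so that its difference was 0.40 on control diet and 0.05 on CA diet. Its 4 probe sets disagreed, with differences between -0.09 and 0.40 on control diet. Rpl13a, also known as part of a complex that silences inflammatory mRNAs, had 12.77 and 12.85 without DEN and 13.11 and 13.04 after DEN. Rpl7 had 11.99 and 11.91 without DEN and 12.12 and 12.23 after DEN. Rpl11, which rides with 5S ribosomal RNA and can bind the p53 regulator MDM2, had 12.28 and 12.24 without DEN and 12.42 on both DEN arrays.

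In the small subunit, Rps6, the substrate of the S6 kinases of the TOR pathway and a gene with a run at its start, had the largest difference on control diet. Its log2 levels were 8.0 and 7.89 without DEN and 8.50 and 8.20 after DEN, differences of 0.50 and 0.31. Rps19, the gene most often mutated in the inherited anaemia of Diamond and Blackfan, had 11.19 and 11.06 without DEN and 11.57 on both DEN arrays. This was 1.30-fold on control diet and 1.42-fold on CA diet, the largest of the small subunit there. Rps4x, encoded on the X chromosome, had 12.52 and 12.48 without DEN and 12.92 and 12.87 after DEN. Rps10, a protein ubiquitinated when ribosomes collide, had 12.60 and 12.55 without DEN and 12.95 and 12.93 after DEN. In each of these 4 genes both DEN arrays lay above both others.

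Where the mRNA leaves the small subunit, Rpsa, Rps14, Rps26 and Rps28 were measured. Rpsa, also known as a laminin receptor, had 11.82 and 11.71 without DEN and 12.24 and 12.08 after DEN, and the medians of the 4 genes were 0.15 and 0.16. Where the mRNA enters, Rps3 differed by 0.32 and 0.29, while Rps2 did not separate the arrays. Rps2 had 12.73 on control diet, 12.70 on CA diet, and 12.77 and 12.67 on the DEN arrays with these diets. Its range of 0.10 was the smallest of the 43 expressed members, followed by Rps27, Rps14, Rpl39 and Rpl7a with ranges between 0.12 and 0.15. Of the 17 genes listed for Diamond-Blackfan anaemia, 10 were measured and all 10 were above 0 on both diets, with medians of 0.16 and 0.21.

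Gene copies with narrower expression were looked at apart. Rpl3l, known from heart and skeletal muscle, lay between 2.93 and 3.03 and Rpl39l, known from testis, between 3.19 and 3.50, both below the expression limit on every array. Rps16, which is not among the listed copies, was also below it, between 2.49 and 2.72, on the probe set used. The annotation also lists Rps16 on a probe set with several symbols whose mean was 10.8 log2 units higher. Rps27l, a p53-inducible copy of Rps27, had 12.24 on control diet, 12.38 on CA diet, and 12.36 and 12.49 on the DEN arrays with these diets. On the probe set used it was higher on the CA diet with and without DEN, by 0.13 and 0.14. It was also higher after DEN on both diets, by 0.12 and 0.11. Over its 3 probe sets the DEN differences ran from 0.01 to 0.16 on control diet and from 0.06 to 0.12 on CA diet. The CA diet differences ran from 0.03 to 0.14 without DEN and from 0.06 to 0.13 after DEN. Rps4l, a copy of Rps4x, had 7.79 and 7.78 without DEN, 8.08 on DEN with control diet and 7.66 on DEN with CA diet. The DEN array with control diet was high and the other 3 were near each other. Rpl22l1, a copy of Rpl22 that the symbol rule does not take in, had 10.59 and 10.56 without DEN and 11.00 and 10.80 after DEN. Of 6 such copies measured, within and outside the rule, 4 were expressed. Their median differences after DEN were 0.21 on control diet, with 3 of 4 above 0, and 0.04 on CA diet, with 2 of 4.

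The comparison of diets asked what CA did without DEN and after it. Without DEN the median difference of the 43 genes was -0.03 and 12 of 43 were above 0, against a median of 0.01 and 52.9% above 0 for all expressed genes. After DEN the median was -0.03 and again 12 of 43 were above 0, against -0.02 and 44.8%. At least 1.5-fold differences were found in 0 of 43 genes both times, against 4.26% of all genes without DEN and 3.10% after DEN. The sign after DEN was not firm, as centring on the median gave 0.01 and quantile normalization 0.00.

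Some of the members with the largest diet differences were the same without and after DEN. Rps15 and Rps6 were among the 6 lowest and Rpl14, Rps25 and Rps27l among the 6 highest both times. Without DEN, Rpl37 was lower by 0.20 (-0.20), with log2 levels of 8.95 on control diet and 8.75 on CA diet. Rplp0, Rps19, Rps15 and Rps28 followed with differences of -0.13, -0.13, -0.12 and -0.12. Rpl14 was higher by 0.37, the only member past the largest hybridisation control of 0.30, which 10.5% of all genes exceeded upwards. After DEN, Rps4l was lower on CA diet by 0.42 (-0.42) and Rps6 by 0.30 (-0.30), the 2 members past the largest control difference of 0.27, which 11.3% of all genes exceeded downwards. Rpl41 (-0.23), Rps15 (-0.18) and Rpsa (-0.16) came next, although the other 3 probe sets of Rpl41 were higher on CA diet, by 0.08 to 0.28, and Rps27l was the highest with 0.13. Over the 43 genes the 2 diet comparisons, which share no array, had r of 0.19 and rho of 0.09, with 23 of 43 genes below 0 in both (53.5%) and 4 above 0 (9.30%). For all expressed genes r was 0.41, with 29.8% below 0 and 27.9% above 0 in both.

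The array with both treatments was also set against the array with neither. The median difference was 0.17 with 39 of 43 above 0, against 0.01 and 51.3% for all expressed genes, and 1 of 43 reached 1.5-fold, against 18.9%. This gene was Rpl14, with a log2 difference of 0.78. The difference between both diet effects had a median of -0.03 over members, against -0.04 over all expressed genes, and 0 of 43 reached 1.5-fold, against 5.44%. Rps4l (-0.42), Rpl41 (-0.35) and Rpl14 (-0.32) had the lowest values, and Rpl37 and Rpl7 the highest, with 0.20 each.

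Because 23 members stood on several probe sets, each probe set was also read alone. Of the 87 expressed probe sets 81 were above 0 for DEN on control diet and 77 on CA diet, with medians of 0.24 and 0.23 (0.225). On control diet 52.0% of all expressed probe sets with 1 symbol were above 0. Among expressed probe sets of a gene the widest spread on control diet was that of Rpl41 (0.49), and on CA diet that of Rps10 (0.65). Rps24, mutated in Diamond-Blackfan anaemia, was the only gene whose probe sets differed by more than 1, from -0.75 to 0.26 on control diet, and the low value came from a probe set below the expression limit. On the probe set used, Rps24 had log2 levels of 12.54 and 12.52 without DEN and 12.74 on both DEN arrays. Probe sets marked x, whose probes can also bind other transcripts, gave medians of 0.17 and 0.19 over 14 genes, and unmarked ones 0.33 and 0.28 over 12. The unmarked ones include those of Rpl12, Rpl14, Rpl27a, Rpl39, Rps4l, Rps6, Rps25 and Rps27, each with a mean under 9. Among the x ones only that of Rpl37 had such a mean, so suffix and signal level are not separated here. Ribosomal protein genes have many processed pseudogenes in the mouse genome, and array signal from these cannot be told apart from those of the genes.

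Genes of the same machinery were read beside the ribosomal proteins. Mitochondrial ribosomal proteins, which build the separate ribosome of the mitochondrion, had median differences after DEN of -0.05 on control diet and -0.04 on CA diet, with 31 and 28 of 76 above 0. Mrps6 was the only gene of the 76 past 1.5-fold, on control diet, against 15.4% of all expressed genes in either direction. Its log2 levels were 7.72 and 7.95 without DEN and 8.33 and 8.43 after DEN. Translation factors and other mRNAs with a TOP tract had medians of 0.13 and 0.08, with 14 of 17 above 0 on each diet. Pabpc1, the poly(A)-binding protein, had 11.83 and 11.90 without DEN and 12.19 and 12.20 after DEN. Eef1b2, a subunit of the elongation factor that recharges EEF1A, had 11.77 and 11.68 without DEN and 12.09 and 12.08 after DEN. Eif4a2, a helicase of initiation, was lower on both diets, by 0.22 (-0.22) and 0.24 (-0.24).

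Factors that assemble ribosomes in the nucleolus showed a median of 0.11 on control diet, with 44 of 64 above 0. On CA diet their median was 0.00, with 29 of 64 above 0. Past 1.5-fold were 4 of 64 on control diet, against 15.4% of all expressed genes in either direction. On CA diet it was 1 of 64, against 16.3%. Nop58, a core protein of the particles that methylate ribosomal RNA, had 7.50 and 7.66 without DEN and 8.23 and 8.29 after DEN. Gar1, of the particles that make pseudouridine, had 6.95, 7.34, 7.70 and 7.62 in the order control diet, CA diet, then DEN on each of these diets. Eif6, which keeps the subunits apart, differed by 0.68 and 0.46, and Tsr1 by 0.60 and 0.28. Genes of RNA polymerase I, which transcribes the ribosomal RNA, had medians of 0.09 and 0.01 over 14 genes.

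In the TOR pathway and translational control the medians were 0.07 and -0.04 over 16 genes. Larp1, which binds TOP tracts, had 9.24 and 9.17 without DEN and 9.72 and 9.53 after DEN. Deptor, an inhibitor of TOR, was lower on both diets, by 0.53 (-0.53) and 0.52 (-0.52). Myc, a transcription factor that promotes ribosome synthesis, had 6.68 on control diet, 6.98 on CA diet, and 7.29 and 6.92 on the DEN arrays with these diets, so it differed by 0.60 on control diet and by -0.05 on CA diet. In a separate list, that of the S6 kinase genes left out by the symbol rule, Rps6ka3 differed by 0.67 and 0.78. Of the 6 genes of that list measured, 2 were expressed, and both were above 0 on each diet. Over all 6 the median differences were 0.0004 and 0.04.

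**Figure D4:**
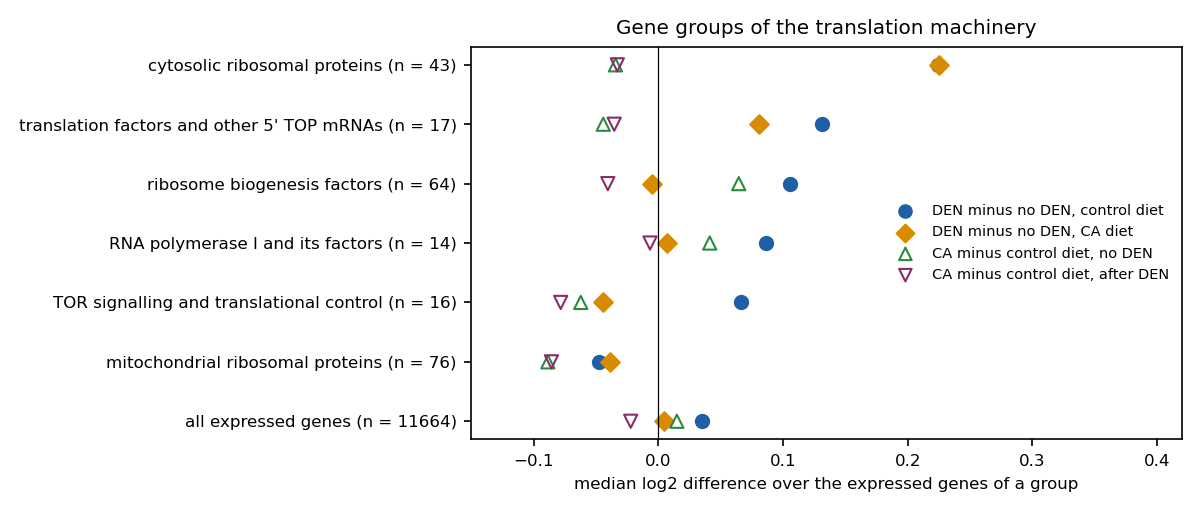
Median log2 difference over the expressed genes of each group of the translation machinery, with n genes a group, for DEN minus no DEN on control diet (blue circles) and CA diet (orange diamonds) and for CA minus control diet without DEN (green triangles) and after DEN (purple triangles). The cytosolic ribosomal proteins have both DEN symbols at 0.22, where they cover each other, and the mitochondrial ribosomal proteins have all 4 symbols below 0.

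Markers of proliferation and of other cell types differed between the same arrays. Proliferation genes had a mean log2 level of 4.91 on control diet, 5.62 on CA diet, and 6.48 and 6.46 on the DEN arrays with these diets, over 15 genes of which 8, 3, 2 and 2 were under the expression limit. Mki67, a protein of cycling cells, had 3.90, 5.32, 7.15 and 6.99 in the same order. Macrophage markers, 11 of 11 expressed on each array, had mean levels of 7.52, 8.16, 8.06 and 8.63, and stellate cell and fibroblast markers, 10 genes, had 7.29, 7.42, 8.08 and 7.94. Endothelial markers (8 genes) were between 6.68 and 6.74 without DEN and at 7.15 and 7.31 after DEN. Cholangiocyte markers were at 4.04 and 4.29 without DEN, with 6 and 5 of 7 genes under the limit, and at 5.75 and 5.92 after DEN, with 2 and 3 under it. B and plasma cell markers were at 6.42 and 6.49 without DEN, with 3 of 7 under the limit on each array, and at 7.16 and 7.04 after DEN, with 2 under it. T and NK cell markers were at 4.82 and 4.78 without DEN, with 4 and 5 of 8 genes under the limit, and at 5.28 and 5.30 after DEN, with 1 and 2 under it. Over the 4 expressed T and NK cell markers the median difference after DEN was -0.09 on control diet and 0.15 on CA diet. Neutrophil markers were at 4.74 and 5.07 without DEN, with 4 and 3 of 5 under the limit, and at 5.54 and 5.75 after DEN, with 2 under it on each array. Erythroid markers, 1 of 3 expressed, were between 4.99 and 5.23.

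Proliferation and macrophage genes were also higher on CA diet without DEN, with median differences of 1.15 and 0.64 over expressed genes, where the ribosomal protein genes had -0.03. The part of proliferation and of these cell types in the difference after DEN was not tested. In whole liver, fewer cells of a type and less RNA per cell cannot be told apart.

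Outside the group, the genes with the most similar pattern were sought by the distance between centred profiles over the 4 arrays, taken from the mean of the members. The mean member was at -0.11 on control diet, -0.13 on CA diet, and 0.14 and 0.10 on the DEN arrays with these diets, relative to its own mean. The 5 nearest were Alkbh1, Mnat1, Ankrd50, Ccdc6 and Neil1, at Euclidean distances between 0.019 and 0.025. With 4 arrays and 11664 genes such closeness is a description of these pools.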

How the data were processed

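The data were 4 Affymetrix mouse arrays of liver RNA. The deposited values are log2 expression levels. The submitters' processing notes name RMA and Partek 6.5 for them, with options not given here. RMA makes arrays alike in distribution, so a change of most genes in 1 direction would be removed. Of 45101 probe sets, 64 were controls; 34958 listed 1 symbol in the platform annotation, 932 several and 9211 none. Detection calls were not used here, and the number of arrays limits the precision.

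Differences of log2 values were computed for 5 pairs of arrays and for the difference between the diet effects, with Python 3.11.15, pandas 2.3.3 and statsmodels 0.14.6 (loess fraction 0.3). With 1 array a group, no test or p-value was made, and counts at 1.5-fold and 2-fold were set beside those of all expressed genes. The median differences and the 1.5-fold counts were tested on simulated arrays with known shifts. All probe sets of a gene were given the same shift there, so the choice of probe set was not tested. The alternative scalings, the motif search and the search for similar patterns were not tested in this way. Genes named are members with the largest differences each way, members of site lists and paralogues, members past 1.5-fold, below the limit or steadiest, and up to 4 of each further list with the largest differences. The members and lists were chosen with earlier results of these data known. Alternatives were other filters, scalings, probe set rules and thresholds.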

Additional observations from a re-analysis of the deposited data

Results flagged for a closer look

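On the probe set used for Rpl41 the diet effects had opposite signs without and after DEN. The log2 difference between CA diet and control diet was 0.12 without DEN and -0.23 after DEN, so the diet effect after DEN minus that without DEN was -0.35, a difference that was not tested. On the other 3 probe sets of Rpl41 both diet effects were above 0, and the mean over its probe sets gave 0.11 and 0.09, with -0.015 for their difference. The DEN effects on Rps4l, which has 1 probe set, also had opposite signs, 0.30 on control diet and -0.12 on CA diet. The CA diet value minus the control diet value was -0.42, and this was not tested either. Both pairs of values exceeded 1 SD of the hybridisation controls. For Rpl41 neither value passed the largest control difference, 0.30 without DEN and 0.27 after DEN. For Rps4l the control diet value passed it (0.20) and the CA diet value did not (0.37). For the difference between diet effects it was 0.57, and 0 of 43 members passed it, against 2.45% of all genes upwards and 3.36% downwards.

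Probe sets that list several symbols were left out of the group. There were 110 with a ribosomal protein symbol, 100 of them expressed, which together list 43 symbols of the group's form, 28 of them not among the 46 genes. Their median log2 difference between DEN and no DEN was 0.24 on control diet, with 90 of 100 above 0, and 0.23 on CA diet, with 92 of 100 above 0. For the diet without and after DEN it was -0.03 and -0.04.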

How the results depend on the processing

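Of 216 recomputed values under the alternatives, 193 moved by less than the SD of the hybridisation controls or, for counts, by at most 1.5 times; 23 moved further. Of the 144 medians and subunit differences among the 216, 13 had another sign than the main value, each time from a main value smaller than that SD. These were 2 for the median of the diet after DEN (up to 0.01), 3 for that of the difference between diet effects (up to 0.06), 3 for large minus small after DEN on control diet (down to -0.047), 1 for it on the diet without DEN (-0.02) and 4 for it in the difference between diet effects (up to 0.06). This tolerance was chosen after seeing the data, since there are no replicates, as was the alternative of members whose mean reached 9. The median difference after DEN became 0.062 on control diet with each array centred. For both treatments against neither it became 0.056 with centring and 0.28 with loess. The number of members past 1.5-fold after DEN on control diet became 0 with a filter at the upper quartile, with centring, with a 2-fold threshold and with members of a mean of at least 9. On CA diet it became 0 with these 4 and with quantile normalization, and 2 with loess and with every probe set alone. For both treatments against neither it became 0 with the upper quartile filter, the 2-fold threshold and the mean of at least 9, and 2 with every probe set alone. For the difference between diet effects it became 1 with every probe set alone and with probe sets without a suffix. The large minus small subunit median became -0.047 for DEN on control diet and 0.16 for the diet after DEN on probe sets without a suffix, and 0.12 for both treatments with the mean over probe sets. The cause of these moves was not tested. No paired analysis was possible because each group has 1 array. The arrays give no replicate error, so differences below the spread of the hybridisation controls cannot be resolved. Differences above it are not thereby resolved, since added control transcripts do not hold the spread between mice or pools.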
